A study of Mus musculus with 12 samples.

Results

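The genes described here encode the machinery that copies DNA, 52 genes in all, from the proteins that mark and license origins of replication to those that finish the new strands and pack them into chromatin. They were the rows of the count table whose symbol equals a name on a fixed list. All 52 names were found, each on 1 row of the 13780 in the table, and all 52 passed the filter on low counts that left 13767 genes. RNA was sequenced from 12 libraries of CD8+ T cells from mouse spleen, 4 of naïve cells frozen right after isolation and 8 of cells that were grown on anti-CD3/CD28 beads for 72 h with recombinant human IL-2 at 10 U/ml, of which 4 were kept in plain media and 4 in media with 40 mM sodium lactate. The sample characteristics name the beads aCD3/CD8, while the protocols name anti-CD3/CD28. The mice were C57BL/6J of 8 to 12 weeks. By the methods of the study each condition had 4 independent donors. The names of the activated libraries carry only WT1, WT2 or WT3, and some recur within a condition, so a name was taken as 1 mouse only within the low or within the high range of library numbers. This assumption gives 5 donors of activated cells, 3 of them present in media and in lactate, and every statement on donors below rests on it. The media libraries carry the label vehicle but had plain media, with no added sodium chloride, so added lactate and added sodium and osmolality cannot be told apart. Total counts ran from 14726904 to 21478137 per library.

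Replication starts when the origin recognition complex (ORC), with CDC6 and CDT1, loads the MCM2-7 helicase onto DNA, a step called licensing that geminin holds back after S phase has begun. Kinases and the factors CDC45, GINS and MCM10 then turn the loaded helicase into a moving fork, where polymerase α with primase starts each strand, polymerases δ and ε extend them on the sliding clamp PCNA, and RPA covers the bare single strands. Naïve T cells rest outside the cell cycle, and triggering of the T cell receptor brings them into rapid division. Many replication genes are known targets of the E2F transcription factors, which the retinoblastoma proteins hold in check in resting cells.

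The promoters are shown first because the genes rose together on activation, and E2F sites are a known feature of such genes. Promoters from RefSeq (GRCm38.p6, 250 bases before to 50 after each gene's start) were matched for 43 of the 52 genes. An E2F site was searched as TTTCCCGC, TTTCGCGC, TTTGCCGC or TTTGGCGC on both strands. It was found in 15 of the 43 promoters (34.9%), in 2.32% of all 27025 promoters of that length, and in 4.28% of the 9898 promoters of the genes tested. The CCAAT box (CCAAT, both strands) was found in 58.1% of the 43 and 37.9% of all promoters, and the cell cycle homology element CHR (TTTGAA or TTCGAA, both strands) in 18.6% and 19.4%. Among the promoters of the genes tested the shares were 39.3% for CCAAT and 14.3% for CHR, so the share of CHR in the 43 lay below that of all promoters and above that of the genes tested. The 250 bases before the start are printed 5′ to 3′ on the strand of the gene, with the E2F letters of either strand in capitals. Orc1, Cdc6 and Pola1 had the largest increase with activation among the genes with E2F letters within these 250 bases (those of Clspn lie after the start), and Mcm10, with the largest increase of all 52, had none. Mcm5 and Mcm6 were added after their values were seen, because 2 E2F matches overlap in each of them.
Orc1, chr4:108579204-108579453, plus strand: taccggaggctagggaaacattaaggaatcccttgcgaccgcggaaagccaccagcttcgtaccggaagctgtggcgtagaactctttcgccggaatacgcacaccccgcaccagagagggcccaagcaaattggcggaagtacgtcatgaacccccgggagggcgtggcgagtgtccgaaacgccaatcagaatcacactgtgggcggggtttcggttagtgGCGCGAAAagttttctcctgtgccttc
Cdc6, chr11:98907901-98908150, plus strand: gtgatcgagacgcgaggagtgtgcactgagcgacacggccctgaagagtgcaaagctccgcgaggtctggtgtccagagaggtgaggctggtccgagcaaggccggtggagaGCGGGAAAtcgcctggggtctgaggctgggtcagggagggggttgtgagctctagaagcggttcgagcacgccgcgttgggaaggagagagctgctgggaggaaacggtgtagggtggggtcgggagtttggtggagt
Pola1, chrX:93632156-93632405, minus strand: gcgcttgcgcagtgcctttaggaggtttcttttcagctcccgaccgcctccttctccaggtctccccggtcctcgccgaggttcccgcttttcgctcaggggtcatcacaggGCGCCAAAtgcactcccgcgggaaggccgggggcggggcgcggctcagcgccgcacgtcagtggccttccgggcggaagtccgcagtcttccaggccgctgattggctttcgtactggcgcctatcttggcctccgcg
Mcm10, chr2:5012792-5013041, minus strand: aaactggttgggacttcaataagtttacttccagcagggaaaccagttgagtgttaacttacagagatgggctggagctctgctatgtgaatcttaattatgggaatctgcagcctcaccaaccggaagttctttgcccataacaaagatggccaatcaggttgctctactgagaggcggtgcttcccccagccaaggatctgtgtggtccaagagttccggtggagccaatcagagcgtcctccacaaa
Mcm5, chr8:75109259-75109508, plus strand: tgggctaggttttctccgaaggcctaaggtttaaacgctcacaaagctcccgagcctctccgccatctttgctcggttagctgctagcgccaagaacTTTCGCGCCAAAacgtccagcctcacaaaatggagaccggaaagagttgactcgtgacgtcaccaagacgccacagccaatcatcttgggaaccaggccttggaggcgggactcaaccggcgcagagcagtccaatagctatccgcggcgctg
Mcm6, chr1:128359706-128359955, minus strand: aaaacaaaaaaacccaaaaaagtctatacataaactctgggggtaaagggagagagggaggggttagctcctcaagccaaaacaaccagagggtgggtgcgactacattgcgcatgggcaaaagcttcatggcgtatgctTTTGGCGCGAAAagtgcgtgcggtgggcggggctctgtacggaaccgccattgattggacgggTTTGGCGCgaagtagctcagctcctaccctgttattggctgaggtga
The first base of the E2F letters lay at -27 from the start in Orc1, at -138 in both Cdc6 and Pola1, at -153 and -149 in Mcm5, and at -110, -106 and -47 in Mcm6. These starts are those of RefSeq, 1 per gene. In the GENCODE M21 annotation Cdc6 begins at 98907801, so all its printed bases lie inside the gene there. Orc1 begins at 108579423 in it, so its E2F letters lie just inside the gene as well. The median log2 fold change of media against naïve was 1.86 for the 15 genes with E2F letters and 1.48 for the 28 without, with ranges of 0.50 to 3.51 and 0.044 to 4.03. The lactate differences of these genes had medians of 0.22 with and 0.25 without the letters. These are descriptions of letters in a window, and no binding was measured.

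Before the comparisons, the libraries were checked for how they stand to each other. CPM (counts scaled to the library total by TMM, a correction for differences in composition) of Cd8a and Cd8b1, the chains of the CD8 coreceptor, was at least 369 in every library. Of the 6 CD8 T cell markers, 3 were called lower in lactate than in media, all chains of CD3 with no overlap of the groups: Cd3e (-0.91 ± 0.13 on the log2 scale, adjusted p = 0.000269), Cd3d (-0.74 ± 0.15, adjusted p = 0.00233) and Cd3g (-0.80 ± 0.21, adjusted p = 0.0091). Cd2 was called higher (0.51 ± 0.13, adjusted p = 0.0091), and Cd8a (-0.15 ± 0.25, adjusted p = 0.672) and Cd8b1 (0.29 ± 0.23, adjusted p = 0.343) were not called. The calls of Cd2 and Cd3g lay near the threshold and each held in only 12 of 26 alternative fits. Those of Cd3d and Cd3e each held in 25. The 6 markers summed to 2975 to 3679 CPM in media and 2356 to 2941 in lactate libraries. The naïve libraries also held markers of other spleen cells: the summed CPM of 5 B cell markers was 467 to 1130 there and 5.69 to 16.1 in the activated libraries, that of 5 myeloid markers 420.3 to 1395 against 0.223 to 0.982, and that of 3 red cell markers 75.7 to 2939 against 0 to 1.74. Of 5 dendritic markers the sum was 61.6 to 146 in naïve and 0.279 to 2.82 in activated libraries, with Xcr1 and Siglech at 0 in all 8 of the latter, and of 2 NK cell markers 3.13 to 8.00 against 0 to 0.717. CD4 T cell markers summed to 26.1 to 55.3 in naïve, 44.6 to 55.8 in media and 76.0 to 89.4 in lactate libraries, most of it Zbtb7b in the activated cells, while Cd4 itself stayed under 1 CPM there. The part of these transcripts in any result was not tested, and in bulk RNA fewer cells of a type and less RNA per cell cannot be told apart. The naïve library 4 stood apart, with Cd8a at 388 CPM against 849 to 1208 in the other naïve libraries. The naïve library 2 held the most red cell transcripts. It also held the highest naïve level of 27 of the 52 genes (51.9%, where 22.2% of all genes tested were highest there).

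The levels of the 52 genes differed widely from each other within a condition. Compared per gene length as TPM (counts per gene length, scaled to the same total in every library), Mcm6, an MCM helicase subunit, was highest in media with 417 ± 23.1 TPM (SD, n = 4), followed by the clamp Pcna with 378 ± 27.2 and Mcm3, another helicase subunit, with 322 ± 33.6. The media libraries ranged from 394 to 441 TPM for Mcm6, from 346 to 412 for Pcna and from 276 to 350.4 for Mcm3, so neighbours in this order overlapped. The lowest were Dna2, a nuclease and helicase that trims flaps, with 10.5 ± 2.38 TPM, then Orc1, the largest ORC subunit, with 22.4 ± 5.18, and Gins3, a GINS subunit, with 24.2 ± 1.63. Orc1 and Gins3 overlapped, and Dna2 lay below both in every media library. Subunits of 1 complex were not level by TPM, which divides by the annotated length of a gene and not by that of the transcript made. The exons of Mcm2 span 6956 bases and those of Mcm6 4666, and the part of length in these ranges was not tested. The 6 MCM2-7 genes ran from 104 TPM (Mcm2) to 417 TPM (Mcm6) in media, and the 6 ORC genes from 22.4 TPM (Orc1) to 104 TPM (Orc6). Together the 52 genes made up 1850 ± 116 TPM in naïve, 5836 ± 331 in media and 6443 ± 287 in lactate libraries. In counts that was 0.207% to 0.241% of all counts in naïve, 0.642% to 0.739% in media and 0.770% to 0.814% in lactate libraries, so the naïve libraries lay far below both activated groups, and by share of counts the lactate libraries lay above every media library, while by summed TPM they overlapped.

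**Figure D1:**
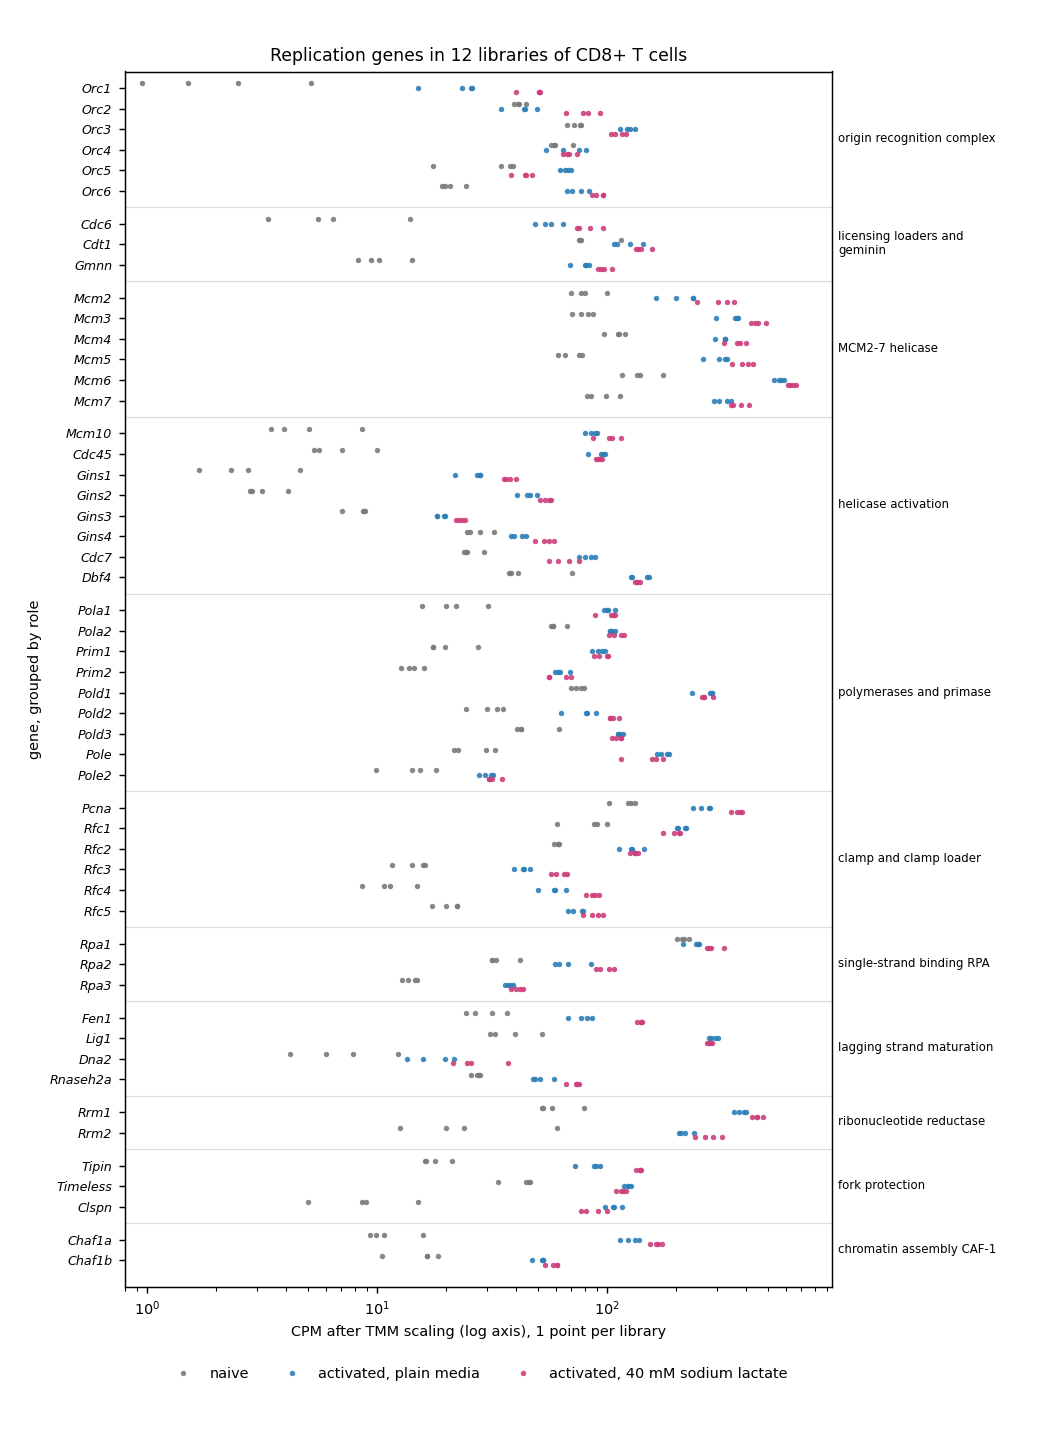
CPM of each replication gene on a log axis, with 1 point per library for naïve (grey), media (blue) and lactate (pink) libraries, grouped by role. Nearly all genes had every activated library above every naïve one, and the pink points sat just above or among the blue ones, with Orc5 and Cdc7 as the genes where all pink points lay below the blue.

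The first comparison asked what activation in plain media did to these genes. Almost the whole machinery rose: 49 of the 52 genes were called higher in media than in naïve cells at an adjusted p of at most 0.01, and 0 were called lower (edgeR quasi-likelihood test, Benjamini-Hochberg over 13767 genes), where 28.5% of all genes tested were called higher and 29.0% lower. Their median log2 fold change was 1.71, which is 3.27-fold, against -0.029 over all genes tested, and 43 genes were at least 2-fold and 7 at least 8-fold higher. By role, all genes were called higher in the MCM2-7 helicase (6 of 6), the helicase activators (8 of 8), the polymerases and primase (9 of 9), the clamp and its loader (6 of 6), lagging strand maturation (4 of 4), licensing (3 of 3), fork protection (3 of 3), ribonucleotide reductase (2 of 2) and the CAF-1 chromatin assembly factor (2 of 2). Only the ORC (4 of 6) and RPA (2 of 3) held genes that were not called.

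The largest increases were those of Mcm10, Gins2, Cdc45, Clspn and Chaf1a. Mcm10, which helps the helicase to begin unwinding, had 3.95, 8.59, 5.06 and 3.47 CPM in naïve libraries 1 to 4 and 90.3, 80.3, 88.2 and 85.0 in media libraries 1 to 4, a log2 fold change of 4.03 ± 0.23 (SE, adjusted p = 2.7e-08). Gins2, part of the GINS complex on the helicase, went from 3.16, 4.09, 2.80 and 2.86 to 49.8, 40.6, 46.3 and 44.8 CPM (3.81 ± 0.13, adjusted p = 1.66e-09). Cdc45, which joins GINS on the helicase, went from 5.58, 10.0, 5.33 and 7.00 to 94.1, 82.3, 97.5 and 95.6 CPM (3.73 ± 0.17, adjusted p = 5.9e-09). In all 3 the groups lay far apart, with every media library at least 8-fold above the highest naïve one. Clspn, claspin, which links the fork to the checkpoint kinase, had 8.90, 15.1, 8.57 and 4.99 CPM in naïve and 107, 116, 106 and 97.6 in media libraries (3.51 ± 0.25, adjusted p = 1.5e-07). Chaf1a, the large subunit of CAF-1, which places histones on new DNA, had 10.7, 15.9, 9.27 and 9.92 CPM in naïve and 137, 114, 133 and 124 in media libraries (3.47 ± 0.16, adjusted p = 4.79e-09). For all 5 of these genes naïve library 2 was the highest of its group.

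The 3 genes that were not called belong to ORC and RPA. Orc2 had 41.1, 44.2, 39.5 and 41.5 CPM in naïve and 44.2, 34.4, 49.4 and 43.5 in media libraries, and its log2 fold change was 0.044 ± 0.12 (adjusted p = 0.768), with a sign that changed under other settings. Orc4 had 58.8, 59.5, 71.2 and 57.3 and 64.0, 75.4, 80.9 and 54.0 CPM (0.15 ± 0.12, adjusted p = 0.294), and Rpa1, the large subunit of RPA, had 216, 202, 212 and 228 and 250.1, 244, 247 and 213 CPM (0.16 ± 0.086, adjusted p = 0.126). In each of the 3 the naïve and media libraries overlapped. The other ORC subunits were called, and Orc1 went from 2.48, 5.17, 1.51 and 0.952 CPM in naïve to 26.0, 15.1, 25.5 and 23.3 in media libraries, a log2 fold change of 3.16 ± 0.39 (adjusted p = 1.33e-05). Orc6 (1.82 ± 0.10), Orc5 (1.04 ± 0.20) and Orc3 (0.76 ± 0.084) rose less.

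The genes called higher with the smallest change were Cdt1, the loader that geminin binds, and Gins4. Cdt1 had 77.4, 75.8, 76.4 and 115 CPM in naïve and 126, 107, 111 and 144 in media libraries (0.50 ± 0.14, adjusted p = 0.00814). Naïve library 4 was far above the other 3 for Cdt1 and overlapped the media libraries, and the call was lost when any single library other than media 2 or naïve 4 was left out, and also with DESeq2, with its size factors, with a minimum of 10 counts in every library, and in the 2 groups alone. Dna2 lost its call without naïve library 3. Without naïve libraries 2 and 4, which stood apart, 49 genes were again called higher. Gmnn, geminin itself, rose from 8.28, 14.1, 9.43 and 10.2 to 79.9, 68.8, 80.8 and 83.5 CPM (2.90 ± 0.15, adjusted p = 1.11e-08), and Cdc6 rose from 6.42, 13.9, 5.55 and 3.36 to 57.1, 48.7, 53.5 and 64.2 CPM (2.94 ± 0.32, adjusted p = 5.3e-06).

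Activation in lactate was read against the same 4 naïve libraries, so the values are given side by side. In lactate 50 of the 52 genes were called higher and 0 lower than in naïve cells, with 33.0% of all genes tested called higher and 32.0% lower, and the median log2 fold change was 1.95. Orc4 (0.15 ± 0.12, adjusted p = 0.291) and Orc5 (0.43 ± 0.20, adjusted p = 0.0612) were not called. Rpa1 was called (0.43 ± 0.086, adjusted p = 0.000573) but not without naïve library 2, nor without naïve libraries 2 and 4 together, when 49 genes were called. By role the medians of media and of lactate against naïve were 2.45 and 2.63 for helicase activation, 1.87 and 2.08 for the MCM2-7 helicase, 1.86 and 1.84 for the polymerases and primase, 1.45 and 1.86 for the clamp and its loader, 1.31 and 2.03 for lagging strand maturation, and 0.90 and 0.78 for ORC.

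**Figure D2:**
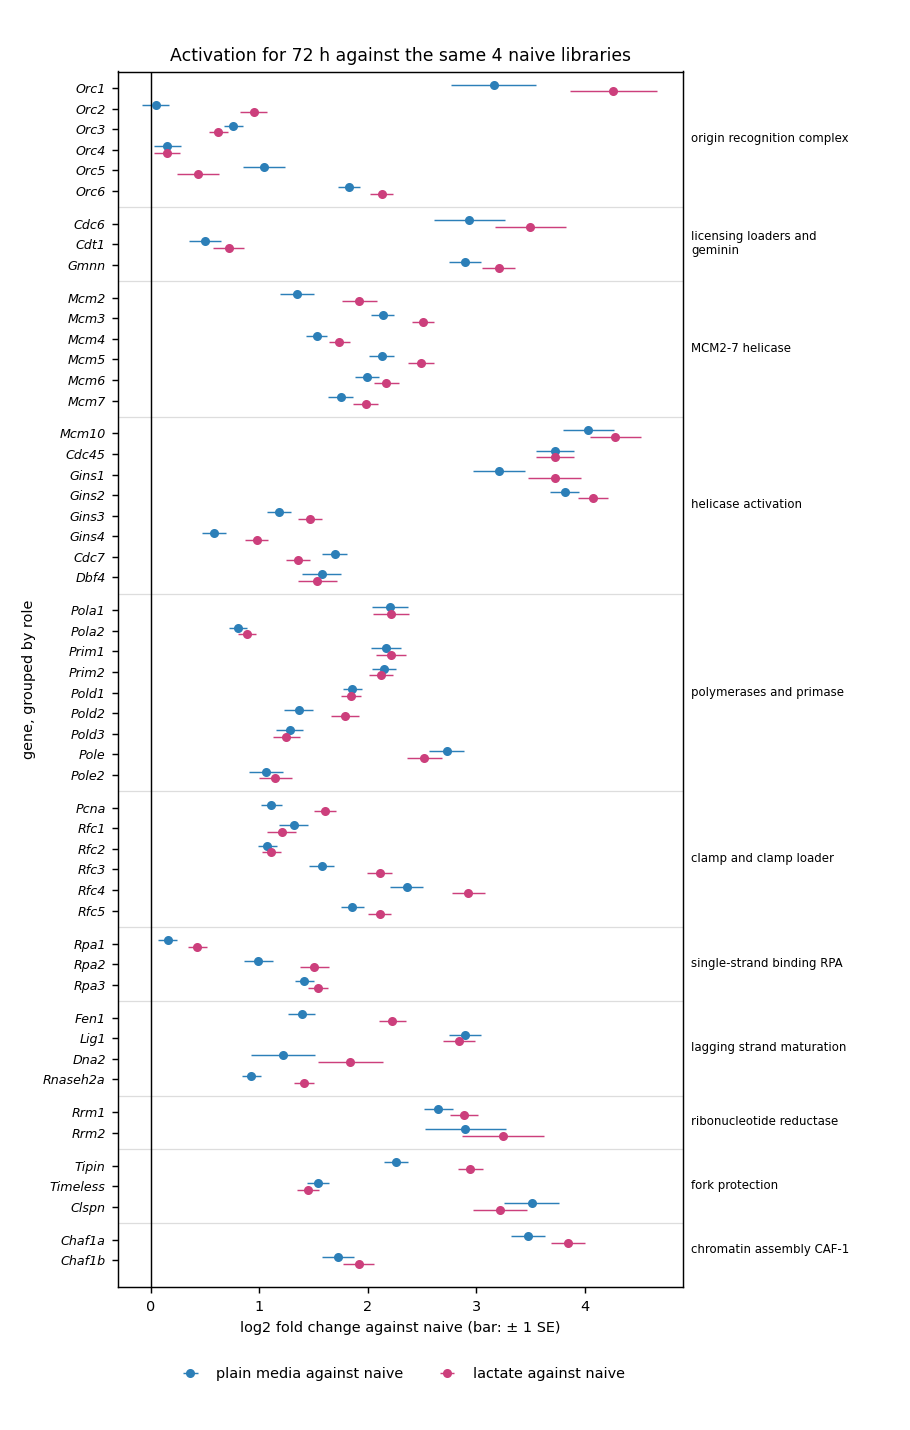
Log2 fold change against naïve cells with its SE for each replication gene, in media (blue) and in lactate (pink), both against the same 4 naïve libraries. Mcm10, Gins2 and Cdc45 lay near a log2 fold change of 4 in both, while Orc2, Orc4 and Rpa1 lay near 0 in media.

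The second comparison asked how sodium lactate during activation changed the machinery. Of the 52 genes, 9 were called higher in lactate than in media and 0 lower, which is 17.3% higher where 13.9% of all genes tested were called higher and 11.1% lower, so the share called was near the background. The 9 were Orc2, Fen1, Tipin, Rfc4, Rfc3, Rpa2, Pcna, Rnaseh2a and Mcm3, and their changes were small, from 29.4% to 86.9% above media. The median log2 fold change of the 52 genes was 0.24, that is 1.18-fold, against -0.0016 over all genes tested, and 38 of the 52 values were above 0 (35 to 37 under other scalings). In 28 genes every lactate library was above every media library (53.8%, where 23.2% of all genes tested had this), and in 2 genes every lactate library was below (21.5% of all genes). At an unadjusted p under 0.05 there were 23 genes above and 2 below media. The share of all genes tested at that threshold was not computed, so this count is not read as a trait of these genes.

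The number of calls moved with the fit and with the libraries in it, and the cause was not tested. With the donor as a block in the fit of all 12 libraries, only Orc2 was called, among 992 genes in all instead of 3451. With the donor as a block in the 8 activated libraries alone, a fit chosen after seeing the data, 12 genes were called higher and 1 lower (Orc5), among 3654 genes in all. The 8 activated libraries without a block gave 16 higher and 1 lower, as did leaving out naïve libraries 2 and 4. These 2 fits called 4603 and 4793 genes in all, so calls over all genes grew as well. Without media library 2, which held the lowest media level of 34 of the 52 genes (65.4%, where 28.9% of all genes tested were lowest there), the calls were 5 higher and 0 lower, among 2252 genes in all. Those 5 were Orc2, Fen1, Tipin, Pcna and Rnaseh2a, which were each called in at least 25 of 26 alternative fits.

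Within the 3 donors taken to have both libraries, 31 of the 52 genes were higher in lactate in all 3 donors and 8 were lower in all 3 (59.6% and 15.4%, against 33.3% and 32.8% of all genes tested). All 9 called genes were higher in all 3, by 0.21 to 1.07 on the log2 scale. This sign was fixed in advance, since every lactate library lay above every media library for them, so it is no further support. The same holds for all 28 genes with such separate groups, which are among the 31. The numbers in the library names fall into a low range, with 8 libraries, and a high range, with 4, and the median lactate difference of the 52 genes was 0.22 in the low range (3 media and 2 lactate libraries) and 0.24 in the high range (1 media and 2 lactate libraries).

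**Figure D3:**
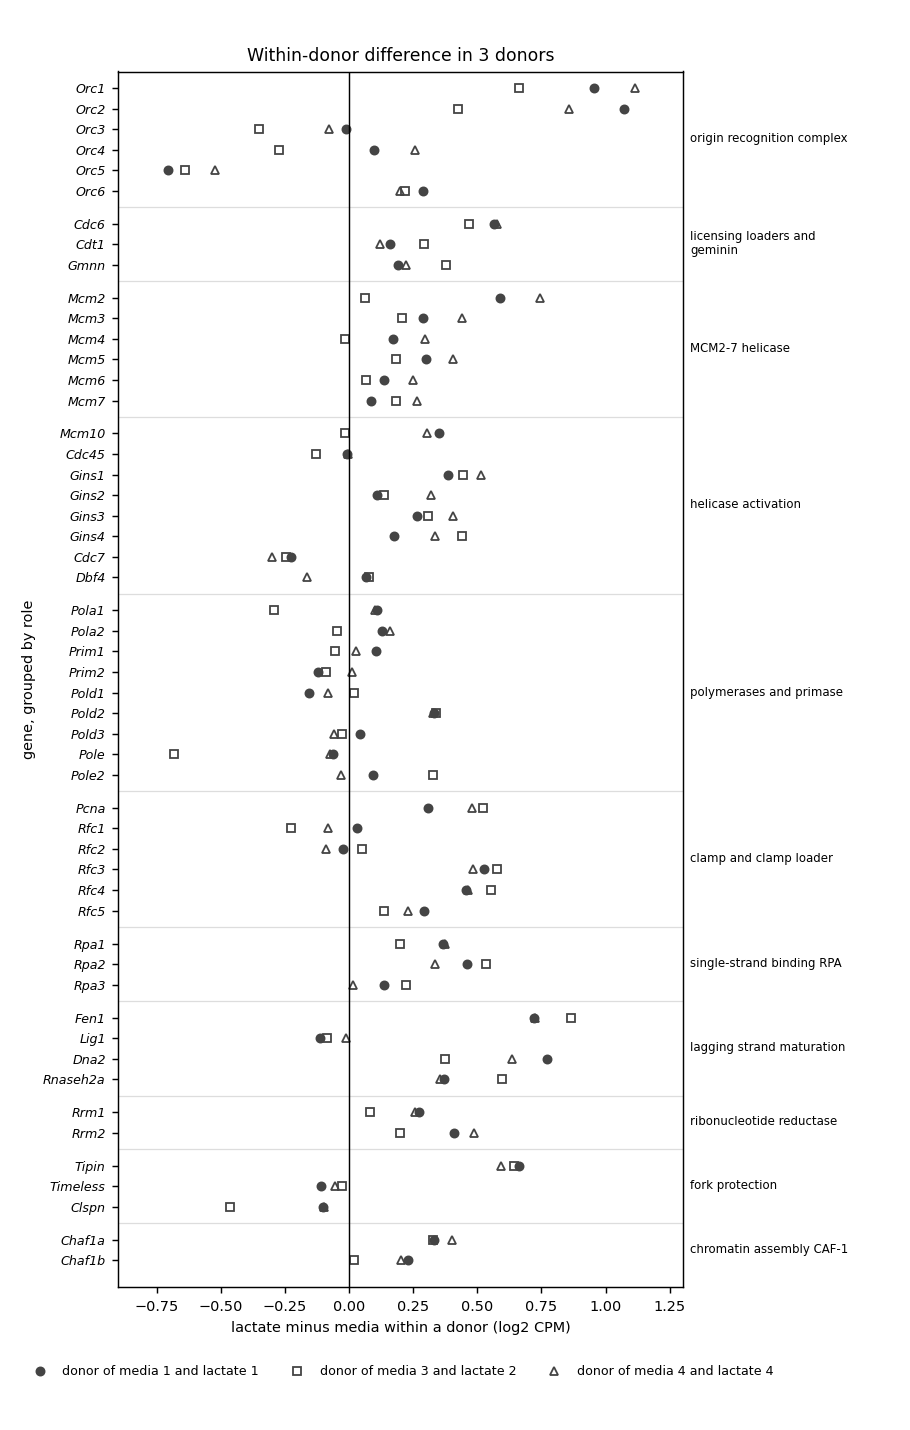
Lactate minus media in log2 CPM within each of the 3 donors with both libraries, for each replication gene. Fen1, Tipin, Rfc3, Rfc4 and Chaf1a had 3 points close together to the right of 0, Orc5 and Cdc7 had 3 points to the left, and 7 of the 9 polymerase and primase genes had points on both sides of 0.

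Among the origin proteins 1 of 6 ORC subunits was called, and the values of the 6 lay on both sides of 0. Orc2 (chr1:58462771-58505109, GRCm38, minus strand) had 44.2, 34.4, 49.4 and 43.5 CPM in media libraries 1 to 4 and 93.0, 66.3, 82.4 and 78.8 in lactate libraries 1 to 4. Every lactate library was above every media and every naïve library, and the log2 fold change of lactate against media was 0.90 ± 0.12 (adjusted p = 0.000214). The call held in all 26 alternatives, and Orc2 was the one of the 9 that was not called between media and naïve cells. Exons of Nif3l1 on the opposite strand cover 29.8% of the exons of Orc2, and since no source used here gives the strand option of the counter, reads of the 2 genes may be shared: Nif3l1 itself had 16.2 to 21.8 CPM in media and 26.7 to 34.1 in lactate (0.71 ± 0.14, adjusted p = 0.00222). Orc1 had 26.0, 15.1, 25.5 and 23.3 CPM in media and 50.5, 40.4, 51.3 and 50.6 in lactate, the largest difference of the 52 genes at 1.10 ± 0.34. It did not pass (adjusted p = 0.0221), although the groups did not overlap. Orc1 passed in 8 of 26 alternative fits, including those without naïve library 2 or 4, with DESeq2 and in the 8 activated libraries alone. Orc5 went the other way, with 62.7, 65.8, 69.6 and 67.7 CPM in media and 38.3, 44.5, 44.1 and 47.0 in lactate, -0.61 ± 0.19 (adjusted p = 0.0251). Every lactate library was below every media library for Orc5. It passed as lower in 5 of 26 alternative fits, including those without naïve library 4, with DESeq2 and in the 8 activated libraries alone. Orc4 had 68.5, 67.0, 73.7 and 64.5 CPM in lactate, within the range of its media libraries (-0.003 ± 0.12, adjusted p = 1).

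For the licensing factors the values leaned up without passing. Cdc6 had 57.1, 48.7, 53.5 and 64.2 CPM in media and 84.4, 73.9, 75.7 and 95.8 in lactate (0.56 ± 0.29, adjusted p = 0.149), with no overlap between the groups. Cdt1 had 141, 136, 134 and 156 CPM in lactate and overlapped media (0.22 ± 0.14, adjusted p = 0.252). Gmnn was at 0.31 ± 0.14 (adjusted p = 0.0908).

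All 6 MCM2-7 genes had values above 0 under each scaling, and 1 was called. Mcm3 (chr1:20802968-20820312) had 370.4, 296, 367 and 360.3 CPM in media and 452, 423, 439.8 and 489 in lactate. The lactate libraries were all above the media ones, of which media 2 was far below the other 3, and the log2 fold change was 0.37 ± 0.10 (adjusted p = 0.00992). This call lay at the threshold: it was lost without any one of the libraries except naïve 4, with adjusted p of 0.00496 to 0.0429 over the 12 fits that each left out 1 library. Mcm2, the subunit that also handles histones, had 237, 163, 236 and 199 CPM in media and 356, 247, 304 and 334 in lactate. It was at 0.57 ± 0.15 and just missed the threshold (adjusted p = 0.011). Mcm2 passed in 7 of 26 alternative fits, including those without naïve 2, naïve 4 or lactate 2 and that with DESeq2. Mcm6 had 569, 534, 585 and 558 CPM in media and 625, 612, 643 and 664 in lactate (0.18 ± 0.11, adjusted p = 0.22), the smallest difference of the 6, although its groups did not overlap. In 5 of the 6 genes, Mcm4 being the exception, every lactate library was above every media library, where 23.2% of all genes tested had this.

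None of the 8 helicase activators passed. Gins1 had 27.2, 21.9, 27.9 and 28.0 CPM in media and 35.6, 38.0, 36.4 and 40.0 in lactate (0.51 ± 0.21, adjusted p = 0.072), with separate groups, and all 4 GINS genes had no overlap between lactate and media, the other 3 being Gins4 (0.39 ± 0.11, adjusted p = 0.012), Gins3 (0.29 ± 0.11) and Gins2 (0.26 ± 0.11). Every lactate library lay above every media library in 23.2% of all genes tested. Gins4 passed in 7 of 26 alternative fits, including that without naïve library 4. Cdc45, the partner of GINS, had 93.5, 89.2, 91.5 and 95.2 CPM in lactate against 94.1, 82.3, 97.5 and 95.6 in media, a difference of -0.0003 ± 0.15 on the log2 scale. Cdc7, the kinase that with Dbf4 fires origins, had 80.1, 85.5, 89.0 and 75.4 CPM in media and 68.4, 75.1, 56.0 and 61.1 in lactate (-0.34 ± 0.11, adjusted p = 0.0243). Every lactate library was below every media library for Cdc7, while Dbf4 was at -0.04 ± 0.17. Cdc7 passed as lower without naïve library 4 and with DESeq2.

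The polymerases and primase had the median nearest to 0 of the 11 role groups. None of 9 passed, their median was 0.0019, and only Pold2 had separate groups. Pola1, the catalytic subunit of polymerase α, had 99.97, 101, 108 and 97.1 CPM in media and 108, 88.5, 106 and 104 in lactate (0.0019 ± 0.16, adjusted p = 1), with a sign that turned under every other scaling, and that of Prim1 turned under total counts. Pold2, the second subunit of polymerase δ, had 89.6, 63.3, 81.3 and 81.7 CPM in media and 113, 103, 106 and 103 in lactate (0.43 ± 0.13, adjusted p = 0.0178), and it passed without naïve library 4. The catalytic subunits Pold1 (-0.014 ± 0.087) and Pole (-0.21 ± 0.15), and Pold3 (-0.032 ± 0.12), Prim1 (0.043 ± 0.13) and Prim2 (-0.024 ± 0.11) overlapped between the groups. Pola2 (0.078 ± 0.081) and Pole2 (0.086 ± 0.15) overlapped as well.

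The clamp and the clamp loader held 3 of the 9 called genes. Pcna (chr2:132249162-132253314), the ring that tethers the polymerases, had 279, 237, 255 and 276 CPM in media and 345, 366, 379 and 385 in lactate. The groups were well apart, and the log2 fold change was 0.49 ± 0.10 (adjusted p = 0.00165). Rfc3 (chr5:151642756-151651242), a small subunit of the RFC complex that opens the ring, had 46.3, 39.3, 43.5 and 43.0 CPM in media and 66.7, 64.9, 57.2 and 60.2 in lactate (0.53 ± 0.11, adjusted p = 0.00249), and missed the threshold without media library 2 (adjusted p = 0.0101). Rfc4 (chr16:23113943-23127737) had 59.1, 50.1, 58.7 and 66.6 CPM in media and 81.2, 86.2, 88.4 and 91.8 in lactate (0.57 ± 0.14, adjusted p = 0.00727). Its call was lost without naïve 1 or 3, without media 1, 2 or 3 and without any lactate library, with adjusted p of up to 0.0275. In all 3 genes every lactate library was above every media library, and within the 3 donors the differences were 0.31, 0.52 and 0.48 for Pcna, 0.53, 0.58 and 0.48 for Rfc3 and 0.46, 0.55 and 0.46 for Rfc4. The large subunit Rfc1 (-0.11 ± 0.13) and the subunit Rfc2 overlapped between the groups: Rfc2 had 127, 112, 128 and 145 CPM in media and 125, 132, 132 and 136 in lactate (0.037 ± 0.084, adjusted p = 0.764), with a sign that turned under total counts. Rfc5 was at 0.25 ± 0.10 (adjusted p = 0.0661). Eif4a2 covers 12.7% of the exons of Rfc4 from the opposite strand and was at -0.017 ± 0.10.

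Of the RPA genes, Rpa2 (chr4:132768332-132778752), the middle subunit, had 67.8, 59.2, 61.5 and 84.9 CPM in media and 93.3, 89.2, 102 and 107 in lactate. Media library 4 came closest to the lactate libraries, and the log2 fold change was 0.52 ± 0.13 (adjusted p = 0.00775). This call was lost without naïve 1, 2 or 3, without media 1, 2 or 3 and without lactate 1, 3 or 4, with adjusted p of up to 0.0296. Rpa1 was at 0.27 ± 0.086 (adjusted p = 0.0229) with separate groups, and Rpa3 had 39.03, 37.1, 36.0 and 37.7 CPM in media and 42.9, 42.0, 40.2 and 38.1 in lactate (0.12 ± 0.087, adjusted p = 0.284), which overlapped.

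Lagging strand maturation held 2 called genes. Fen1 (chr19:10199132-10204169), the nuclease that cuts the flaps of Okazaki fragments, had 85.8, 67.9, 77.3 and 81.8 CPM in media and 141, 141, 140.1 and 135 in lactate. The lactate libraries lay close together and all above media, and the log2 fold change was 0.83 ± 0.12 (adjusted p = 0.000274), with 0.72, 0.87 and 0.72 in the 3 donors. Of the Fen1 exons 84.2% are shared with other genes, mostly Gm10143 on the opposite strand, so its count is uncertain without the strand option. Rnaseh2a (chr8:84956610-84969767), the catalytic subunit of RNase H2, which removes ribonucleotides from DNA, had 51.1, 47.7, 48.5 and 58.8 CPM in media and 66.1, 73.5, 74.1 and 75.2 in lactate (0.49 ± 0.089, adjusted p = 0.00118). Lig1, the ligase that seals the fragments, was not called, with 293, 278, 302 and 284 CPM in media and 271, 285, 276 and 281 in lactate (-0.056 ± 0.13, adjusted p = 0.774), and its groups overlapped. Dna2 had 21.6, 13.5, 19.8 and 15.8 CPM in media and 37.0, 25.7, 21.3 and 24.6 in lactate (0.62 ± 0.29, adjusted p = 0.107).

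Both genes of ribonucleotide reductase, which makes deoxynucleotides, had separate groups but did not pass. Lactate lay above media without overlap in 23.2% of all genes tested. Rrm1 had 393, 356, 401 and 374 CPM in media and 474, 425, 447 and 446 in lactate (0.23 ± 0.12, adjusted p = 0.151), and Rrm2 had 239, 219, 209 and 205 and 317, 240.3, 266 and 288 (0.35 ± 0.35, adjusted p = 0.457). The SE of Rrm2 was the largest of the 52, and its naïve libraries ranged from 12.6 to 60.7 CPM.

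In fork protection 1 of 3 genes was called. Tipin (chr9:64281581-64305424) had 87.5, 72.8, 89.1 and 93.0 CPM in media and 138, 139, 134 and 140.3 in lactate. The lactate libraries were close together and above all media libraries, and the log2 fold change was 0.69 ± 0.10 (adjusted p = 0.000349). Its binding partner Timeless had 127, 123, 124 and 119 CPM in media and 118, 121, 109 and 115 in lactate (-0.092 ± 0.10, adjusted p = 0.502), and Clspn was at -0.29 ± 0.23 (adjusted p = 0.337), both with overlap. Of CAF-1, Chaf1a had 137, 114, 133 and 124 CPM in media and 172, 167, 154 and 163 in lactate (0.37 ± 0.14, adjusted p = 0.0515), and Chaf1b had 51.9, 47.3, 52.8 and 52.5 and 60.8, 53.6, 58.3 and 60.5 (0.19 ± 0.14, adjusted p = 0.309). Neither passed. In both, every lactate library was above every media library, where 23.2% of all genes tested had this. Exons of other genes cover 52.5% of Chaf1a, 67.3% of Gins2 and 14.7% of Rnaseh2a.

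**Figure D4:**
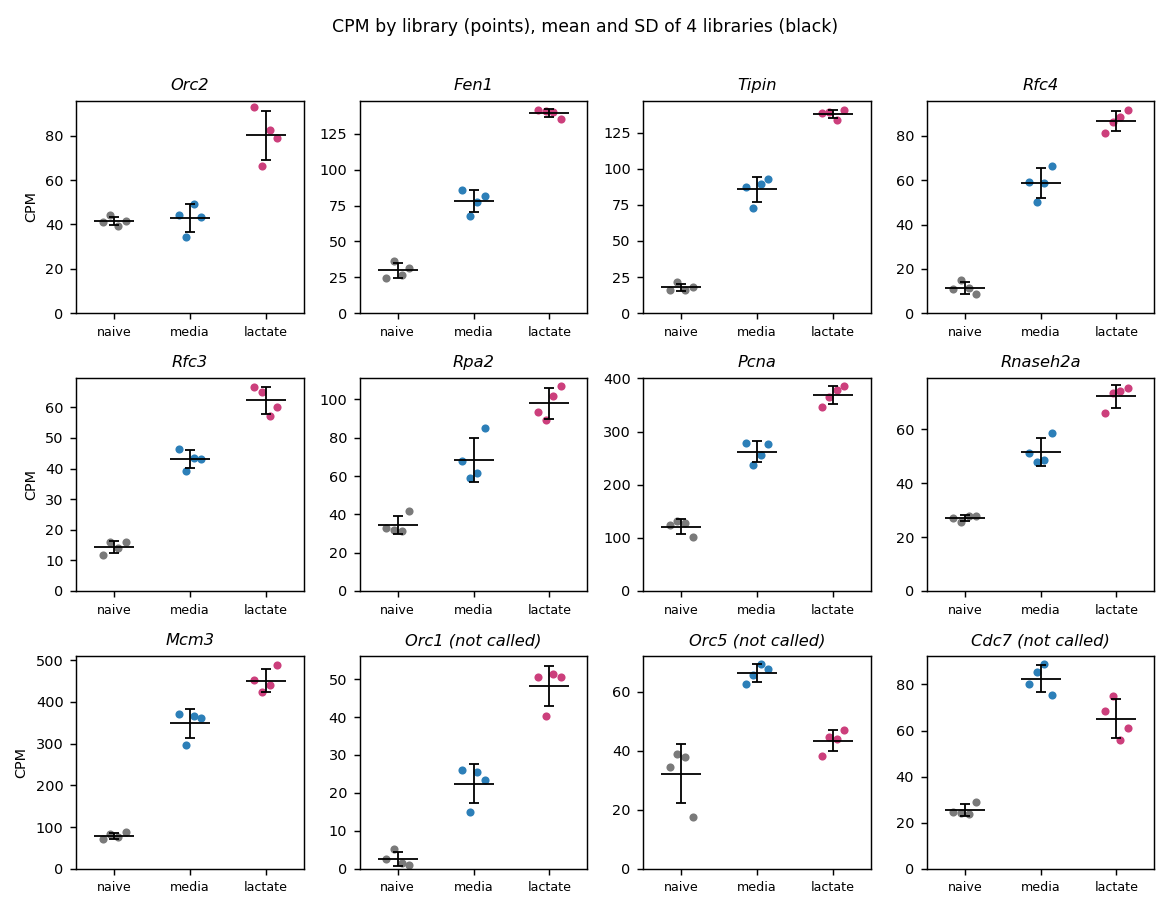
CPM of the 9 called genes and of Orc1, Orc5 and Cdc7 in each library (points), with the mean and SD of 4 libraries in black. In the first 10 panels every lactate point lies above every media point, and in Orc5 and Cdc7 every lactate point lies below.

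**Figure D5:**
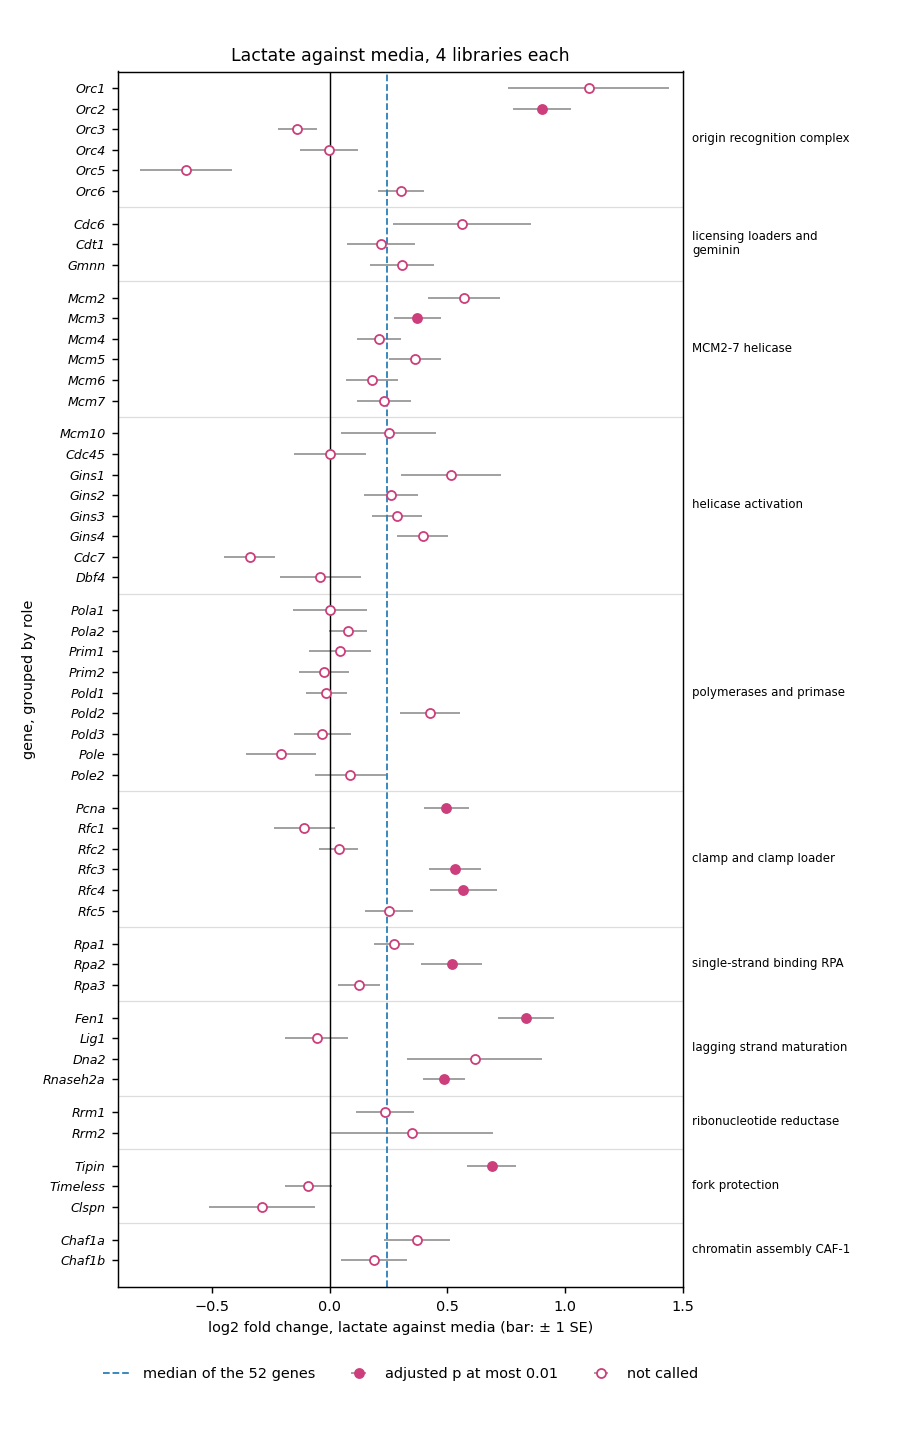
Log2 fold change of lactate against media with its SE for each replication gene, grouped by role, with called genes filled and the median of 0.24 as a dashed line. Called genes lay between 0.37 and 0.90, and the polymerases lay around 0.

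The other genes of the pathway were read from lists that hold none of the 52. Of 67 genes tested, 11 were called higher and 8 lower in lactate than in media, which is 16.4% and 11.9%, near the 13.9% and 11.1% of all genes tested, with a median log2 fold change of 0.19. With the donor as a block in the fit of all 12 libraries, 3 of these 19 calls remained, those of Tfdp1, Atr and Rbl2. The list of 13 E2F and RB regulators held 1 gene higher and 3 lower, with a median of -0.31, and that of 5 S phase cyclins and kinases 1 higher and 0 lower, with a median of 0.39. Tfdp1, the DP1 partner of E2F, had 139.9, 100.46, 138 and 114 CPM in media and 314, 237, 264 and 261 in lactate (1.13 ± 0.14, adjusted p = 0.000144). Ccne1, cyclin E1, had 67.1, 53.3, 54.2 and 60.6 and 149.5, 124, 125 and 121 CPM (1.14 ± 0.18, adjusted p = 0.000387). The folds were 2.19 and 2.21, with no overlap of the groups. All 3 retinoblastoma family genes fell: Rb1 had 161, 205, 206 and 163 CPM in media and 96.0, 121, 125 and 114 in lactate (-0.69 ± 0.13, adjusted p = 0.0017), and Rbl1 (-0.59 ± 0.13, adjusted p = 0.00347) and Rbl2 (-0.57 ± 0.076, adjusted p = 0.000186), singled out after their values were seen, were lower as well.

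Among initiation factors 1 of 12 was called, Cdc25a, a phosphatase that frees cyclin-dependent kinases, with 58.4, 44.0, 60.1 and 56.6 CPM in media and 104, 81.5, 97.8 and 94.4 in lactate (0.79 ± 0.13, adjusted p = 0.000607). The lowest of that list was Ticrr, treslin, at -0.37 ± 0.19 (adjusted p = 0.146). Of 9 further genes for polymerase, clamp and loader subunits or proteins that bind them, 2 rose. These were Poldip2, a binding partner and not a subunit (0.56 ± 0.13, adjusted p = 0.00583), and the subunit Pole3 (0.54 ± 0.13, adjusted p = 0.00543). Pold4, the small subunit of polymerase δ, fell, with 69.6, 76.4, 68.5 and 74.3 CPM in media and 25.4, 45.4, 43.5 and 41.4 in lactate (-0.89 ± 0.17, adjusted p = 0.00141). Of 5 further lagging strand genes, 3 rose, Rnaseh1 (0.74 ± 0.13, adjusted p = 0.00103) and the other two subunits of RNase H2, Rnaseh2c (0.53 ± 0.11, adjusted p = 0.00205) and Rnaseh2b (0.52 ± 0.092, adjusted p = 0.000995), so each subunit of that enzyme was called higher. Lig3 was the lowest of the list at 0.35 ± 0.14 (adjusted p = 0.0642). Pole3, Rnaseh2b and Rnaseh2c were picked after their values were seen.

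In deoxynucleotide supply 0 of 8 rose and 3 fell. Samhd1, which breaks down deoxynucleotides, had 449.6, 853, 457 and 530.4 CPM in media and 294, 349.9, 328 and 349 in lactate (-0.79 ± 0.20, adjusted p = 0.00708), with media library 2 far above the others. Dck, a salvage kinase, was at -0.61 ± 0.11 (adjusted p = 0.00116) and Rrm2b, the p53-induced reductase subunit, at -0.58 ± 0.12 (adjusted p = 0.00237), both named after their values were seen. Tyms, thymidylate synthase, was the highest at 0.46 ± 0.24 (adjusted p = 0.138). In chromatin replication 3 of 7 rose, Asf1b (0.76 ± 0.19, adjusted p = 0.00773), Nasp (0.59 ± 0.15, adjusted p = 0.00904) and Rbbp4 (0.40 ± 0.079, adjusted p = 0.00193), which handle histones, Nasp and Rbbp4 being singled out afterwards, and Dnmt1, the maintenance methyltransferase, was the lowest at -0.062 ± 0.13. In the replication checkpoint 1 of 8 was called. Atr, the kinase that senses bare single strands, had 72.3, 75.8, 79.0 and 63.5 CPM in naïve, 273, 417, 379 and 295 in media and 129, 142, 132 and 132 in lactate libraries. The lactate libraries lay between the other groups with no overlap, and the log2 fold change of lactate against media was -1.35 ± 0.13 (adjusted p = 5.56e-05). Rad1 was the highest of that list at 0.34 ± 0.18 (adjusted p = 0.148).

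Genes of mitosis were read for comparison with those of replication. All 15 were called higher in media than in naïve cells, where 28.5% of all genes tested were called higher. Their median log2 fold change was 4.09, above that of the 52 replication genes. Between lactate and media 0 of 15 were called higher and 1 lower, with a median of -0.15. Of all genes tested, 13.9% were called higher and 11.1% lower there, and these few calls are not read as a trait of the mitosis genes. Cenpa, the centromere histone, had 418, 490.2, 458 and 338 CPM in media and 267, 261, 240.2 and 246 in lactate (-0.75 ± 0.18, adjusted p = 0.00532), and Ccnb1, cyclin B1, was the highest at 0.40 ± 0.24 (adjusted p = 0.204). Ccna2, cyclin A2, the lowest of the 5 S phase cyclins and kinases, was at -0.27 ± 0.38 (adjusted p = 0.615). Exons shared with other genes cover 24.6% of Pold4, 25.1% of Lig3, 24.8% of Rnaseh2c, 21.0% of Rbl2, 18.0% of Rbbp4, 14.9% of Rb1 and 12.5% of Ccna2. The calls of Asf1b and Nasp were lost without any one media or lactate library (and that of Nasp without naïve 2 or 3), with adjusted p of up to 0.0257 and 0.0332. Poldip2 (without media 2, 3 or 4, or lactate 1, 3 or 4), Pole3 (without media 1, 2 or 3, or lactate 1, 3 or 4), Samhd1 (without media 2 or 4, or any lactate library), Rbl1 (without media 2 or 3, or lactate 3 or 4) and Cenpa (without media 1, 2 or 3, or any lactate library) also lost theirs, with adjusted p of up to 0.0239.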

How the data were processed

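RNA of 12 libraries was prepared with the TruSeq Stranded mRNA kit and sequenced on an Illumina NextSeq. The deposited values are raw counts of reads per gene. The authors demultiplexed with bcl2fastq 2.20.0.422, aligned with STAR 2.7.5b to GRCm38, removed PCR duplicates and counted exons of Ensembl genes with featureCounts. Whether featureCounts used strand is not given in the sources used here. Groups came from the sample titles. Counts were tested with edgeR 4.0.16 (quasi-likelihood, TMM scaling, R 4.3.3) in 1 fit of the 3 groups and 12 libraries, over the 13767 genes with at least 1 CPM in at least 3 libraries, and a gene was called at a Benjamini-Hochberg adjusted p of at most 0.01. The common biological coefficient of variation was 23.5%. The SE was taken as the log2 fold change over the root of its F statistic, and n is 4 per group throughout. TPM was computed from the counts and the gene lengths of the table. The fit was also run on simulated counts with known changes. Those libraries were independent, so that run does not cover shared donors or libraries that stand apart. Gene coordinates and exon overlaps came from GENCODE M21 (GRCm38), and promoters from RefSeq (GRCm38.p6).

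The 52 genes, the role groups, the pathway lists and the markers were chosen with earlier results of these data known. Of the 52 genes, values per library are given for those called between lactate and media, for the largest and smallest difference in each role group, for the 3 highest and 3 lowest TPM in media, and for the 5 largest increases with activation and the genes not called there; of the other lists, for the highest and lowest gene. Others were singled out after their values were seen. Of the pathway genes listed, 1 (Atrip) was not analysed here. Alternatives were other scalings, filters, tools, blocks and samples, with DESeq2 1.42.0 and limma 3.58.1. Replicates of a group differed by more than sampling noise, though not equally. By chi-square of the counts per degree of freedom, lactate libraries 3 and 4 differed least, at 5.88. All other pairs within a group lay between 11.2 and 141. The study names 4 independent mouse donors per condition. Pairs of a media and a lactate library were formed where both carry the same WT name within the low or within the high range of library numbers. This assumption gives 3 pairs, which were used as a block. Deviations from the group means in these pairs correlated across genes with r of 0.37, 0.21 and 0.55. Pairs by title number, which on the same assumption join different donors in 2 of 4 cases, gave 0.37, 0.30, 0.0038 and 0.55. Media 4 with lactate 3, taken as different donors, gave 0.37, and media 2 with lactate 2, also taken as different donors, gave the 0.30. The correlations therefore do not single out the assumed pairs.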

Additional observations from a re-analysis of the deposited data

Results flagged for a closer look

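In 23 of 237 groups of 4 libraries, the highest or lowest library lay far from the other 3 (Dixon's test at its 95% critical value), where chance alone gives about 5% of groups. Values are in CPM, with the range of the other 3 libraries of the group beside each. Naïve library 4 was far above the others for Cdt1 (115 against 75.8 to 77.4), Cdc7 (29.2 against at most 24.5), Dbf4 (70.4 against 37.4 to 41.0), Pold3 (62.0 against 40.4 to 42.4), Rpa2 (41.7 against 31.5 to 32.8), Poldip2 (44.1 against 32.4 to 33.5), Rrm2b (41.1 against 36.4 to 37.1) and Nasp (103 against 61.8 to 64.8). Media library 2 was far below the others for Mcm3 (296 against 360.3 to 370.4), Mcm4 (294 against 325 to 327), Gins1 (21.9 against 27.2 to 28.0), Pold1 (234 against 279 to 287), Rnaseh2b (44.3 against 51.3 to 52.2) and Nasp (129.9 against 158 to 162). Naïve library 2 was far above the others for Asf1b (19.0 against 8.89 to 10.1) and Ccnb1 (7.57 against 2.35 to 3.21). Naïve library 3 was far above the others for Orc4 (71.2 against 57.3 to 59.5) and Pola2 (66.7 against 56.8 to 58.4). Lactate library 1 was far above the others for Ccne1 (149.5 against 121 to 125). Lactate library 2 was far below the others for Orc1 (40.4 against 50.5 to 51.3). Media library 4 was far below the others for Rpa1 (213 against 244 to 250.1). Naïve library 3 was far below the others for Gins3 (7.06 against 8.65 to 8.85). Naïve library 4 was far below the others for Timeless (33.4 against 44.4 to 46.1).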

How the results depend on the processing

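The 2 comparisons with naïve cells kept their result in every alternative run: 47 to 49 genes (media) and 49 to 50 (lactate) were called higher and 0 lower when 1 library was left out, with medians of 1.61 to 1.77 and 1.85 to 2.02. Lactate against media was less steady. Leaving out 1 library gave 5 to 13 genes higher, 0 to 2 lower, 2252 to 4845 of all genes called and a median of 0.21 to 0.27, with the lowest counts without media library 2 and the highest without naïve library 4. The replicate block by donor, which rests on the assumed pairs, left 1 gene higher (Orc2) and 992 genes in all. The 2 groups alone gave 16 higher and 1 lower, among 4603 genes in all. With the replicate block by donor, added after seeing the data, they gave 12 higher and 1 lower, among 3654. The replicate block by title number gave 7 higher and 0 lower, among 3256 genes in all, and changed no call in the naïve comparisons. DESeq2 gave 2 lower (Orc5 and Cdc7), among 4551 genes in all. Leaving out naïve libraries 2 and 4 (also added) gave 16 higher and 1 lower, among 4793. An adjusted p of at most 0.05 gave 16 higher, 2 lower and 5461 genes in all. Mcm3 and Rfc4 lost their calls under all 3 other scalings, and Rpa2 under 2 of them. The causes were not tested.

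Signs turned only in genes far from any call, with adjusted p of at least 0.6408. For lactate against media, log2 fold changes of Pola1 were -0.03123 with DESeq2 size factors, -0.02542 with upper quartile scaling, -0.04213 with total counts, -0.007826 with at least 10 counts in every library, -0.03125 with DESeq2, -0.001722 with limma voom, -0.02715 with the donor block, -0.02161 with it in the 2 groups alone and -0.007905 without naïve libraries 2 and 4. Rfc2 was at -0.005965 with total counts and at -0.02306 and -0.01779 in the donor block fits. Prim1 was at -8.284e-05 with total counts and -0.02697 with a term for the low or high range of library numbers. Orc4 was at 0.009813 with limma voom, 0.01036 with the title block, 0.02752 and 0.03182 in the donor block fits, 0.04648 with the term for the range of library numbers and 0.0009941 in the 2 groups alone. Cdc45 was at 0.002702 with limma voom and 0.004157 in the 2 groups alone. Dnmt1 was at 0.01495 and 0.02023 in the donor block fits and 0.003507 with the term for the range of library numbers. Without 1 library each, Cdc45 ran from -0.05329 to 0.02566, Dbf4 from -0.08121 to 0.003913, Orc4 from -0.1061 to 0.08509, Pola1 from -0.02685 to 0.06357, Pold1 from -0.08077 to 0.01313, Prim2 from -0.09064 to 0.02272, Rfc2 from -0.02328 to 0.09607 and Dnmt1 from -0.1684 to 0.007971. For media against naïve, Orc2 was at -0.01685 with DESeq2 size factors, -0.01682 with DESeq2, -0.03993 without naïve libraries 2 and 4 and from -0.05407 to 0.1373 without 1 library, and Orc4 at -0.05468 without naïve libraries 2 and 4, which gave -0.06659 for lactate against naïve. Of 1404 values of single genes for lactate against media, 1254 kept direction and side of the threshold, 50 lost a call and 53 gained one.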
